A study of Xenopus laevis with 16 samples.

Results

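Ptf1a, Rbpj and the E proteins Tcf3 and Tcf12 are the subunits of a DNA-binding complex, and the transcripts of their genes were followed here in explants of Xenopus laevis ectoderm. The gene names were chosen with earlier results of these data known. Every counted gene was then taken whose symbol without the ending for the gene copy is ptf1a, rbpj, tcf3 or tcf12. This gave 7 of the 45038 genes counted, namely ptf1a.L, rbpj.L, rbpj.S, tcf3.L, tcf3.S, tcf12.L and tcf12.S. The genome of this allotetraploid frog keeps many genes as a pair of homeologs, called L and S, and each homeolog is counted on its own. All 7 passed the filter on low counts. Transcripts made from the injected ptf1a mRNA and from the embryo's own gene fall into the same ptf1a.L count.

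Ptf1a is a class II bHLH transcription factor that binds E-box DNA as a dimer with an E protein, a broadly expressed class I bHLH factor such as Tcf3 (E2A) or Tcf12 (HEB). In vertebrates Ptf1a also recruits Rbpj, the DNA-binding protein that otherwise carries the Notch signal, and in the exocrine pancreas of mammals Rbpj is replaced by its relative Rbpjl. Ptf1a is known for directing progenitors towards inhibitory neurons in the spinal cord, cerebellum and retina, and for the making of pancreatic acinar cells. In mouse Ptf1a, tryptophans in C-terminal motifs contact Rbpj.

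RNA was sequenced from animal caps, the ectoderm cut from the blastula. Embryos at the 2-cell stage had received 20 pg of mRNA for Ptf1a (ptf1a-GR), Neurog2 (GR-neurog2, a proneural bHLH factor) or Ptf1a in which W224A and W242A had been introduced (ptf1aW224A/W242A-GR, called the mutant here). GR is the hormone-binding part of the glucocorticoid receptor, which in such fusions makes activity depend on hormone. The caps were kept with dexamethasone (DEX) for 6 h or 25 h. Control caps, labelled CC, were kept with DEX as long, and whether these had been injected is unclear from the labels. The labels give no strain or number of caps per sample. They number 2 libraries in each of the 8 groups without saying that these came from separate batches of embryos, so p-values measure the spread between these 16 libraries, which may be technical.

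Total counts per library ran from 31.4 to 228.3 in units of 1e6. Among genes with 1 to 20 counts, 80.5 to 85.6% had an even count in every library, so single counts were not independent fragments and counting error is wider than the counts alone would give. Levels are counts per 1e6 counts (CPM), scaled by TMM factors, with the mean ± SD of 2 libraries (n = 2) throughout. Tests were edgeR quasi-likelihood F-tests on the counts of all 30384 genes that passed the filter, with Benjamini-Hochberg adjustment over all of them, and genes with an adjusted p under 0.05 are those called. Differences are log2 fold changes ± SE, and intervals are at 95%. The caps carried the transcripts of their tissue. In the 25 h libraries the 18 epidermis marker rows summed to between 56976 and 92884 per 1e6 total counts, against at most 51.2 for the 12 mesoderm and muscle rows and at most 3.51 for the 11 endoderm rows. At 6 h the epidermis rows summed to between 2460 and 4645, against at most 2.40 for mesoderm and muscle and at most 12.6 for endoderm. In bulk RNA, fewer cells of a type and less RNA per cell cannot be told apart.

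The injected transcript comes first, since it checks the labels. For ptf1a.L (chromosome 6L, 23341343 to 23343013, minus strand, build 9.1) the Ptf1a libraries of 6 h stood at 184 and 181 CPM and the mutant libraries at 152 and 146 CPM. In the control libraries it stood at 0.161 and 0.187 CPM, and in the Neurog2 libraries at 0.510 and 0.0960 CPM. The groups that received ptf1a mRNA lay far above the others, as their labels say. The log2 fold change against control was 10.04 ± 0.71 in Ptf1a caps (adjusted p = 4.58e-05, edgeR) and 9.75 ± 0.71 in mutant caps (adjusted p = 8.02e-05). These were the only calls among the 7 genes at 6 h against control, where 0.902% of all genes were called with Ptf1a and 0.606% with the mutant. The transcript of the other construct, neurog2.L (chromosome 1L, 61907027 to 61909892, minus strand), stood at 158 and 192 CPM in the Neurog2 libraries of 6 h and at 0.257 and 0.373 CPM in the controls.

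The 6 h libraries with Ptf1a held somewhat more ptf1a.L than those with the mutant and did not overlap them, yet the difference of 0.29 ± 0.45 was not called (adjusted p = 1, interval -0.70 to 1.28). None of the 7 genes was called in that comparison, in which 0.0329% of all genes were.

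By 25 h most of this transcript was gone. The Ptf1a libraries then held 2.37 and 3.86 CPM of ptf1a.L and the mutant libraries 7.06 and 4.27 CPM, against 0.413 and 0.159 CPM in the controls and 0.376 and 0.0952 CPM with Neurog2. Between the times ptf1a.L fell 58.5-fold in Ptf1a caps (-5.87 ± 0.56, adjusted p = 3.51e-06) and 26.5-fold in mutant caps (-4.73 ± 0.54, adjusted p = 1.08e-05). It was still called above the controls of 25 h in both, by 3.30 ± 0.60 with Ptf1a (adjusted p = 0.00255) and 4.15 ± 0.60 with the mutant (adjusted p = 0.0114). The call for the mutant was lost when the mutant library 1, the control library 1 or the control library 2 of 25 h was left out, with adjusted p = 0.0632, 0.165 and 0.169.

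At 25 h the mutant libraries were both above the Ptf1a libraries in ptf1a.L, but the difference of -0.85 ± 0.47 was not called (adjusted p = 0.311), and neither was the difference between the times of Ptf1a against mutant (-1.14 ± 0.66, adjusted p = 0.459). In control caps ptf1a.L was at 18 and 26 counts in all at 6 h and 25 h, over both libraries of each time, and the difference between the times was not called (0.87 ± 0.76, adjusted p = 0.342). In Neurog2 caps neurog2.L fell likewise between the times (-4.01 ± 0.44, adjusted p = 7.6e-06), to 12.2 and 9.47 CPM.

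**Figure D1:**
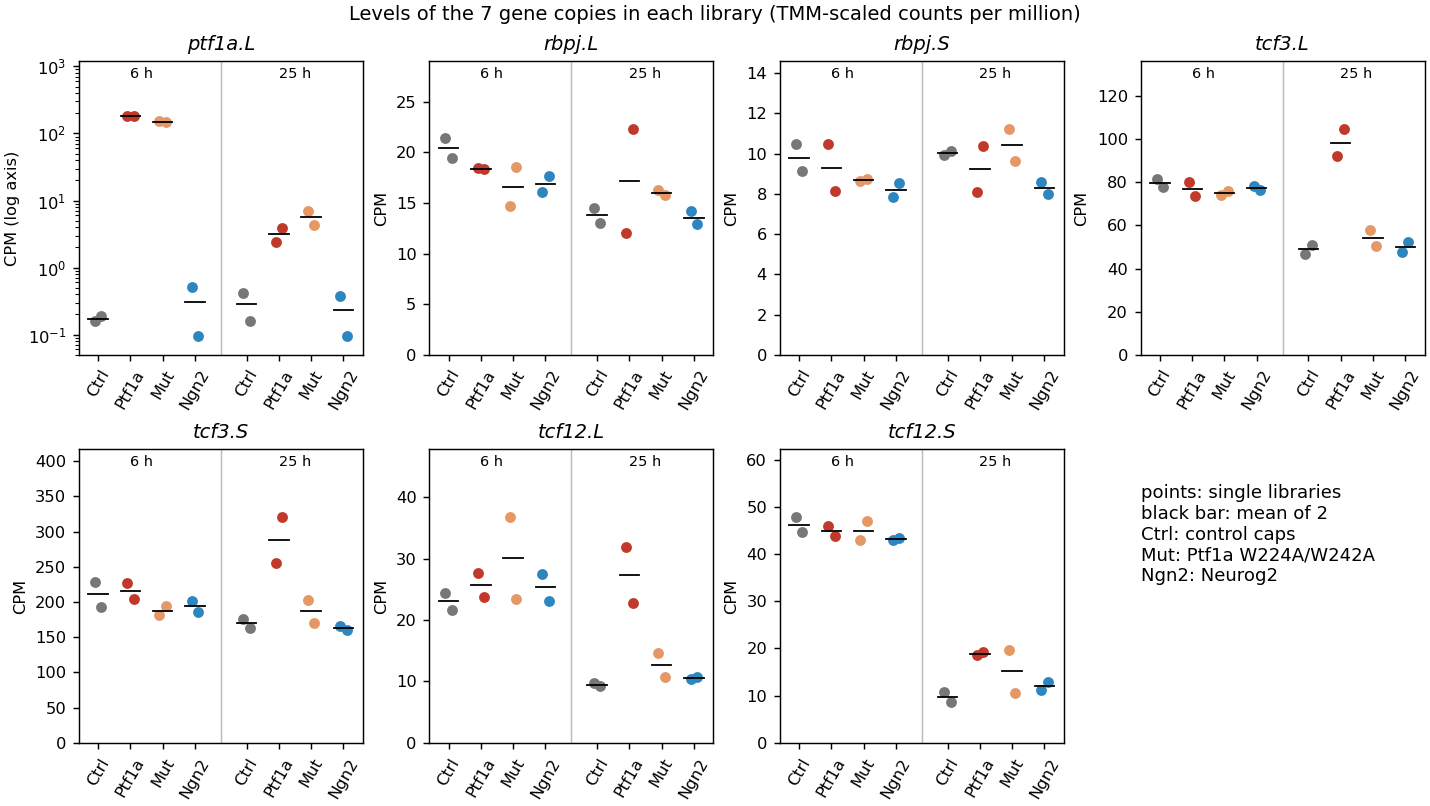
Level of each of the 7 gene copies in every library (y axis, TMM-scaled CPM, logarithmic for ptf1a.L only), with control (grey), Ptf1a (red), mutant (orange) and Neurog2 (blue) caps at 6 h and 25 h, points for libraries and a black bar for the mean of 2. The tcf3.L points of the Ptf1a caps at 25 h (92.1 and 105 CPM) stand above all other libraries, while rbpj.L and rbpj.S stay within 12.0 to 22.3 and 7.83 to 11.2 CPM.

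Transcripts of rbpj, the partner that the mutant's changes concern, passed the test in no comparison between kinds of cap or between times. For rbpj.L (chromosome 1L, 24717538 to 24795699, plus strand) the controls stood at 21.4 and 19.4 CPM at 6 h and at 14.5 and 13.1 CPM at 25 h. With Ptf1a the 6 h libraries stood at 18.4 and 18.4 CPM and those of 25 h at 12.0 and 22.3 CPM. The spread between the Ptf1a libraries of 25 h was the widest of any group for this gene and took in the levels of the controls, the mutant caps and the Neurog2 caps of 25 h. In the order of group means, from 20.4 ± 1.39 CPM in the 6 h controls to 13.5 ± 0.930 CPM in the 25 h Neurog2 caps, 5 of the 7 steps were between groups that overlapped.

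For rbpj.S (chromosome 1S, 21990157 to 22028952, plus strand) the group means ran from 8.19 ± 0.510 CPM in the Neurog2 caps of 6 h to 10.4 ± 1.12 CPM in the mutant caps of 25 h. Neighbours in that order overlapped at all steps but the one between the mutant caps of 6 h and the Neurog2 caps of 25 h. Neither copy of rbpj was called in any of the 14 comparisons. Against the controls of 25 h the Ptf1a caps differed by 0.32 ± 0.26 in rbpj.L (adjusted p = 0.443, interval -0.25 to 0.88) and by -0.12 ± 0.23 in rbpj.S (adjusted p = 0.783, interval -0.61 to 0.38). With 2 libraries a group, a change of any size within these intervals is not excluded. The widest difference was that of rbpj.L between the times in control caps, at -0.56 ± 0.26, which was not called (adjusted p = 0.0799). In Ptf1a caps rbpj.L was called lower at 25 h (-0.64, adjusted p = 0.0446) only with the Ptf1a library 2 of 25 h left out, the library with 22.3 CPM.

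The comparisons with control at each time share its 2 control libraries. At 6 h neither copy of tcf3 or tcf12 was called against control in Ptf1a, mutant or Neurog2 caps. With Ptf1a their log2 fold changes lay between -0.05 and 0.16, beside a median of 0.15 over all genes tested. Scaling by DESeq2 size factors in place of TMM moved that median to 0.00, and called no E-protein gene either. With Neurog2, where 0.25% of all genes were called at 6 h, they lay between -0.12 and 0.14, and with the mutant between -0.17 and 0.39.

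At 25 h all 4 E-protein genes were higher in Ptf1a caps than in control caps. Together with ptf1a.L, whose count holds the injected mRNA, 5 of the 7 genes were called higher. Among all genes 11.9% were called higher and 20.5% in either direction, so a gene taken from the whole table was called often here too. The rises were 2.01-fold for tcf3.L, 1.69-fold for tcf3.S, 2.88-fold for tcf12.L and 1.94-fold for tcf12.S. With Neurog2 and with the mutant no E-protein gene was called against control at 25 h, where 3.08% and 0.836% of all genes were.

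Tcf3 supplies the E12 and E47 proteins in mammals, the first E proteins known to pair with tissue-restricted bHLH factors. For tcf3.L (chromosome 1L, 95220446 to 95279733, plus strand) the Ptf1a libraries of 25 h stood at 92.1 and 105 CPM and the controls at 46.8 and 51.1 CPM. The mutant libraries stood at 57.8 and 50.6 CPM and the Neurog2 libraries at 47.9 and 52.2 CPM, so that the Ptf1a libraries lay above all others of that time. The difference from control was 1.01 ± 0.15 (adjusted p = 0.000834, edgeR), from the mutant 0.86 ± 0.15 (adjusted p = 0.00596) and from Neurog2 0.98 ± 0.15 (adjusted p = 0.00238). These 3 comparisons share the Ptf1a libraries. The call against control held in all 11 alternatives tried, and that against the mutant was lost with the mutant library 2 left out (0.77, adjusted p = 0.0763) and in a fit to the 4 libraries compared (adjusted p = 0.0927).

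In tcf3.S (chromosome 1S, 83780318 to 83841004, plus strand) the Ptf1a libraries of 25 h stood at 255 and 321 CPM and the controls at 176 and 164 CPM. The mutant libraries stood at 203 and 171 CPM and the Neurog2 libraries at 167 and 160 CPM, again all below those with Ptf1a. The differences were 0.76 ± 0.17 from control (adjusted p = 0.00892), 0.62 ± 0.17 from the mutant (adjusted p = 0.0462) and 0.82 ± 0.17 from Neurog2 (adjusted p = 0.0123). The first was lost without the Ptf1a library 2 (adjusted p = 0.0592), the control library 1 (0.0514) or the control library 2 (0.0814). That from the mutant was called in 5 of 11 alternatives and that from Neurog2 in 7 of 11.

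Tcf12 is the E protein best known from lymphocytes and from neural progenitors. For tcf12.L (chromosome 3L, 89981416 to 90116134, minus strand) the Ptf1a libraries of 25 h stood at 31.9 and 22.8 CPM and the controls at 9.73 and 9.24 CPM. The mutant libraries stood at 14.6 and 10.7 CPM and the Neurog2 libraries at 10.4 and 10.7 CPM, with no overlap with the Ptf1a libraries. The differences were 1.53 ± 0.26 from control (adjusted p = 0.00185), 1.11 ± 0.26 from the mutant (adjusted p = 0.0223) and 1.37 ± 0.26 from Neurog2 (adjusted p = 0.00708). Against control the call held in all 11 alternatives, with log2 fold changes from 1.22 to 1.75. Against the mutant it was lost without the Ptf1a library 1 (0.86, adjusted p = 0.135), without the mutant library 2 (0.90, adjusted p = 0.194) and in the fit to 4 libraries, and against Neurog2 it was lost without the Neurog2 library 1 (adjusted p = 0.0613).

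The other copy, tcf12.S (chromosome 3S, 52764211 to 52900002, plus strand), stood at 18.6 and 19.3 CPM in the Ptf1a libraries of 25 h and at 10.8 and 8.64 CPM in the controls. The mutant libraries were apart from each other, at 19.7 and 10.6 CPM, and took in the Ptf1a libraries, while the Neurog2 libraries stood at 11.2 and 13.0 CPM. The difference of Ptf1a from control was 0.96 ± 0.25 (adjusted p = 0.017), and leaving out any 1 of the 4 libraries ended the call, at adjusted p = 0.0504 to 0.135, as did a fit to the 8 libraries of 25 h (adjusted p = 0.0556). Neither the difference from the mutant (0.32 ± 0.24, adjusted p = 0.481) nor that from Neurog2 (0.65 ± 0.25, adjusted p = 0.126) was called, though the latter was with the replicate number as a block within each time (0.64, adjusted p = 0.0436). In mutant caps tcf12.S differed from control by 0.64 ± 0.25 (adjusted p = 0.405), and by 1.02 (adjusted p = 0.0354) with the mutant library 2 left out.

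In all, 3 of the 7 genes were called higher with Ptf1a than with the mutant at 25 h, beside 4.4% of all genes. Against Neurog2 4 of the 7 were called higher, beside 5.13%. These 4 include ptf1a.L (3.66 ± 0.60, adjusted p = 0.00345, edgeR), whose count holds the injected mRNA. At 6 h only ptf1a.L was called between Ptf1a and Neurog2 caps (9.11 ± 0.67, adjusted p = 0.000128), with 0.138% of all genes called. A fit to those 4 libraries alone called none of the 7, and 1 gene of all. With the counts of both copies summed, Ptf1a caps of 25 h held 1.79-fold more tcf3 than controls (0.84 ± 0.16, adjusted p = 0.00282) and 2.44-fold more tcf12 (1.28 ± 0.21, adjusted p = 0.00133). Summed rbpj differed by 0.17 ± 0.22 (adjusted p = 0.652). The sums do not depend on how counted reads were split between the copies. They do depend on whether reads that map to both copies were counted, which is not given in the sources used here.

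**Figure D2:**
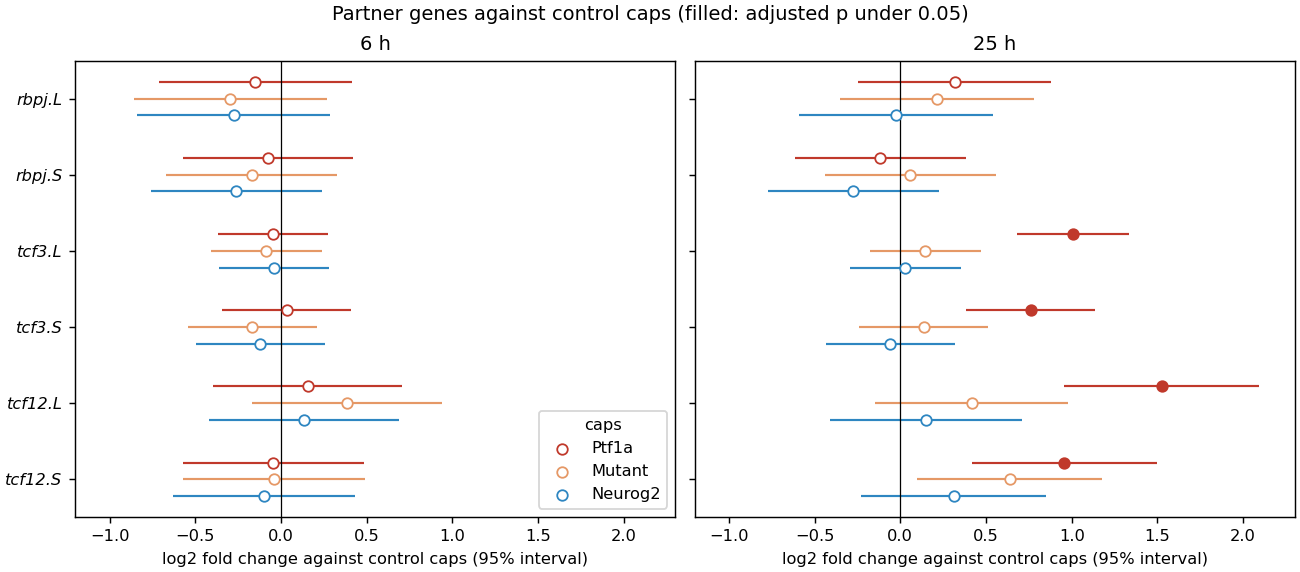
Log2 fold change of the 6 partner genes against the control caps of the same time (x axis, with 95% intervals), for Ptf1a (red), mutant (orange) and Neurog2 (blue) caps at 6 h (left) and 25 h (right), with filled points for an adjusted p under 0.05. The only filled points are those of tcf3.L, tcf3.S, tcf12.L and tcf12.S in Ptf1a caps at 25 h, between 0.76 and 1.53.

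Marker transcripts of other tissues moved with these groups. The 9 neural marker rows (sox2, sox3, ncam1, elavl3 and tubb2b copies) summed to 684 and 787 per 1e6 total counts in the Ptf1a libraries of 25 h, against 22.7 to 28.0 in the controls. They also summed to 465 and 1670 in the Neurog2 libraries and to 654 and 160 in mutant libraries 1 and 2, where no E-protein gene was called. At 6 h the same rows summed to 937 to 1242 in the controls and to 901 to 1057 in the Ptf1a libraries. Those of 6 h with Neurog2 summed to 840 to 1108 and those with the mutant to 891 to 1265. The sum thus fell between the times in control caps, and all sums of 6 h were above those of the Ptf1a caps of 25 h. Of the 9 rows only sox3.S and tubb2b.S are given singly, and the others may differ from them. The copy sox3.S, of a gene of neural progenitors, stood at 18.3 and 12.0 per 1e6 in the Ptf1a libraries of 25 h. It stood at 1.86 and 1.07 in the Neurog2 libraries and at 2.31 and 1.85 in the controls of that time. The neuronal tubulin gene tubb2b.S stood at 305 and 236 per 1e6 with Ptf1a, at 196 and 705 with Neurog2 and at 0.27 and 0.40 in the controls. Epidermis markers summed to 56976 and 62745 per 1e6 with Ptf1a against 83955 to 91957 in the controls. Mutant library 1, with the higher neural sum, also held the higher level of each E-protein gene of the 2 mutant libraries. The Neurog2 libraries of 25 h, with neural sums of 465 and 1670, held 47.9 and 52.2 CPM of tcf3.L and 167 and 160 CPM of tcf3.S. They held 10.4 and 10.7 CPM of tcf12.L and 11.2 and 13.0 CPM of tcf12.S. The part of these tissues in the E-protein levels was not tested.

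Between 6 h and 25 h tcf12.S fell in all 4 kinds of cap, and tcf3.L and tcf12.L in all but the Ptf1a caps. Of all genes 59.3% were called in control caps and 30.4% were called lower. In the controls the fall was of -0.70 ± 0.15 for tcf3.L (adjusted p = 0.00141), -1.28 ± 0.26 for tcf12.L (adjusted p = 0.00102) and -2.25 ± 0.26 for tcf12.S (adjusted p = 9.99e-06). These were 3 of the 7 genes. For tcf12.S this was a drop from 47.9 and 44.6 CPM to 10.8 and 8.64 CPM, and tcf3.S went from 229 and 193 CPM to 176 and 164 CPM without a call (-0.31 ± 0.17, adjusted p = 0.14).

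In Neurog2 caps the same 3 genes were called lower at 25 h, tcf3.L by -0.63, tcf12.L by -1.27 and tcf12.S by -1.84 on the log2 scale, with 29.7% of all genes called lower. Mutant caps added ptf1a.L to them, and 30.7% of all genes were called lower there. The call for tcf3.L in mutant caps (-0.47 ± 0.15, adjusted p = 0.0161) was lost in a fit to those 4 libraries and without the mutant library 2 of either time, at adjusted p of up to 0.141. In Ptf1a caps 2 of the 7 genes were called lower, ptf1a.L and tcf12.S, beside 29.8% of all genes. In those caps tcf12.S fell from 45.9 and 43.8 CPM to 18.6 and 19.3 CPM (-1.24 ± 0.25, adjusted p = 0.000968), while tcf12.L went from 27.7 and 23.7 CPM to 31.9 and 22.8 CPM (0.09 ± 0.25, adjusted p = 0.781). The level of tcf3.L went from 80.4 and 73.8 CPM to 92.1 and 105 CPM in Ptf1a caps, which was not called (0.35 ± 0.15, adjusted p = 0.0572), nor was the difference in tcf3.S (0.42 ± 0.17, adjusted p = 0.0551). Both were called higher with DESeq2 size factors (adjusted p = 0.0144 and 0.0137), with the replicate block (0.0474 and 0.0429) and by DESeq2's Wald test (0.0015 and 0.00339), and with the copies summed tcf3 was higher at 25 h (0.44, adjusted p = 0.0293).

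**Figure D3:**
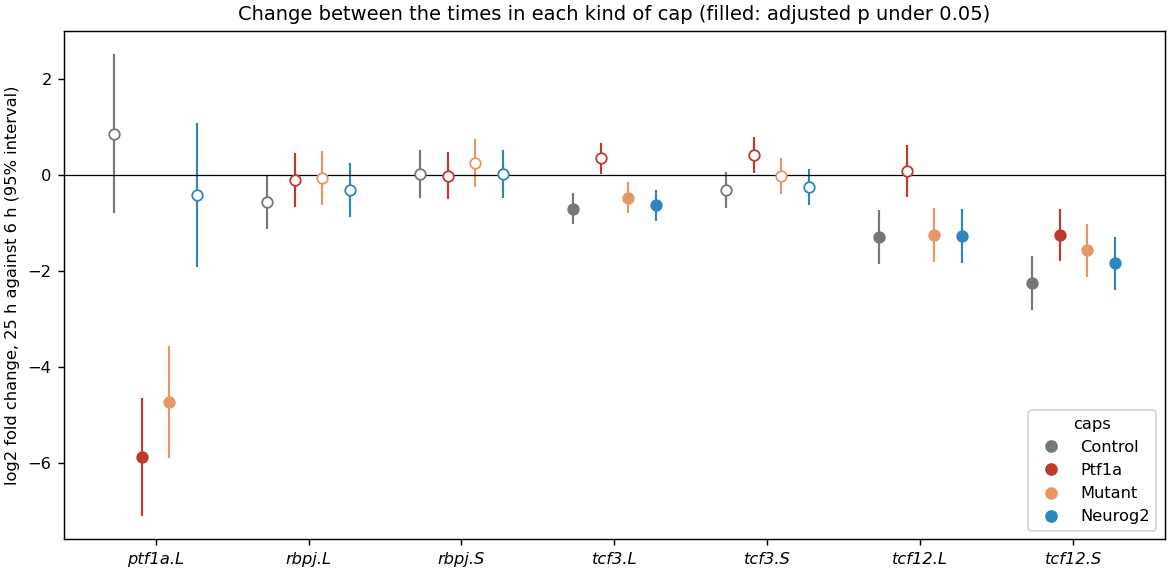
Log2 fold change between 6 h and 25 h (y axis, with 95% intervals) of each of the 7 gene copies in control (grey), Ptf1a (red), mutant (orange) and Neurog2 (blue) caps, with filled points for an adjusted p under 0.05. In tcf3.L and tcf12.L the points of the other 3 kinds of cap are filled and below 0, whereas those of the Ptf1a caps are open at 0.35 and 0.09.

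Whether the effect of Ptf1a differed between the times was tested directly. The effect on tcf3.L was larger at 25 h than at 6 h by 1.05 ± 0.21 (adjusted p = 0.00964) and that on tcf12.L by 1.37 ± 0.36 (adjusted p = 0.0343). In ptf1a.L, whose count holds the injected mRNA, the difference from control was smaller at 25 h, by -6.74 ± 0.92 (adjusted p = 0.00174). That count cannot separate injected transcripts from the embryo's own. Differences in tcf3.S (0.73 ± 0.24, adjusted p = 0.0832) and tcf12.S (adjusted p = 0.0918) were not called, but were with the replicate block within each time (adjusted p = 0.0356 and 0.0267). Of all genes 9.81% were called in this test. The difference was lost for all 3 called genes with the control library 1 of 25 h left out, for tcf3.L also without the Ptf1a library 2 of 6 h (adjusted p = 0.0553), and for tcf12.L when any 1 of 7 of the 8 libraries was left out, the exception being the Ptf1a library 2 of 25 h. For Neurog2 the same test called none of the 7 genes, and 0.296% of all, and for the mutant it called ptf1a.L alone (-5.60 ± 0.91, adjusted p = 0.0342), beside 0.194% of all. That call was lost when any 1 library but the mutant library 2 of 6 h was left out (adjusted p of up to 0.587). Whether Ptf1a and the mutant differed more at 25 h than at 6 h gave 0.82 ± 0.21 for tcf3.L (adjusted p = 0.0809) and 1.34 ± 0.36 for tcf12.L (adjusted p = 0.0992), with no call among the 7 and 1.25% of all genes called. With the replicate block within each time both were called (adjusted p = 0.0184 and 0.00706).

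The order of the groups was thus not the same for the E-protein copies. For tcf3.L the Ptf1a caps of 25 h (98.5 ± 8.98 CPM) came first and did not overlap the next group, the 6 h controls (79.6 ± 2.79 CPM). The 4 groups of 6 h followed within 75.0 to 79.6 CPM, each overlapping its neighbour, and the other groups of 25 h came last at 49.0 to 54.2 CPM. For tcf3.S the Ptf1a caps of 25 h (288 ± 46.7 CPM) also came first without overlap, and the other 7 groups formed a chain of overlapping neighbours from 216 to 163 CPM. For tcf12.L they lay among the 6 h groups, at 27.3 ± 6.45 CPM within a range of 23.1 to 30.1 CPM. For tcf12.S they lay far below the 6 h groups (18.9 ± 0.494 against 43.2 to 46.2 CPM) and overlapped the mutant caps of 25 h (15.2 ± 6.43 CPM).

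The share of each pair's counts that came from the L copy shifted with time. For tcf12 the L share rose from a mean of 36.6% over the 4 groups of 6 h to 50.3% at 25 h, a difference of 13.7 points. The 8 libraries of 6 h spanned 32.7 to 46.2% and those of 25 h spanned 42.5 to 63.2%, so the ranges overlapped slightly. The Ptf1a libraries of 25 h held the highest shares, 63.2 and 54.2%. In mutant caps the tcf12 share was 46.2 and 33.3% at 6 h and 42.5 and 50.2% at 25 h, with overlap. For tcf3 the L share fell from 27.7 to 23.5%, with 26.1 to 29.2% at 6 h and 21.0 to 26.6% at 25 h. For rbpj it fell from 66.7 to 61.1%, with 62.9 to 69.3% at 6 h and 56.4 to 68.2% at 25 h. In Ptf1a caps alone the times overlapped for both genes. The tcf3 share was 26.1 and 26.6% there at 6 h and 26.6 and 24.6% at 25 h. The rbpj share was 63.8 and 69.3% at 6 h and 59.7 and 68.2% at 25 h.

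An exact permutation test, two-sided, of the time labels within each kind of cap gave p = 0.00309 for tcf12, p = 0.00309 for tcf3 and p = 0.00617 for rbpj. Adjusted by Benjamini-Hochberg over the 3 pairs these were 0.00463, 0.00463 and 0.00617 in the exact test. The smallest p that its 1296 relabelings allow is 0.00154. The relabeling treats the kinds of cap as independent and does not model variation shared by libraries of the same replicate number. At 6 h library 1 had a higher tcf12 share and a lower rbpj share than library 2 in every kind of cap. The p-values may thus be too small. Leaving out each library in turn left the differences between 12.1 and 15.3 points for tcf12, between -4.60 and -3.89 points for tcf3 and between -6.67 and -4.53 points for rbpj. These shares compare counts that are not corrected for the lengths of the copies, which cancel in the difference between times only if the transcripts keep their form.

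**Figure D4:**
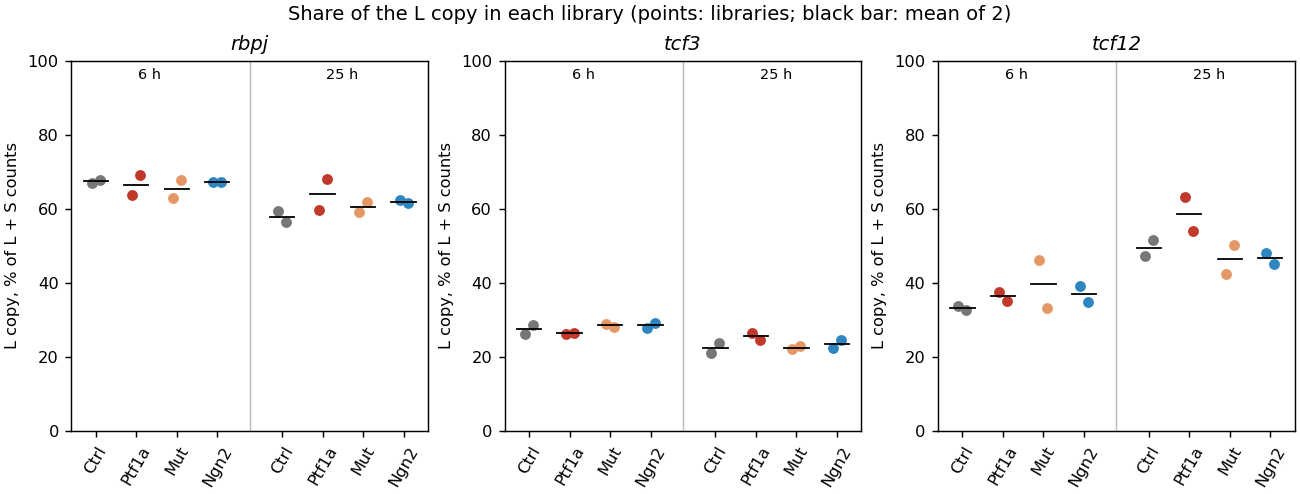
Share of the L copy in the summed counts of both copies (y axis, %, from 0 to 100) for rbpj, tcf3 and tcf12 in every library, with points for libraries and a black bar for the mean of 2, in control, Ptf1a, mutant and Neurog2 caps at 6 h and 25 h. The mean tcf12 share goes up at 25 h in all 4 kinds of cap, most with Ptf1a (63.2 and 54.2%), and the mean rbpj and tcf3 shares go down. In Ptf1a caps the rbpj and tcf3 shares of the 2 times overlap, and in mutant caps the tcf12 shares do.

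Levels of different genes were compared only per length, as CPM per kb of annotated exon. The annotated exons of ptf1a.L span 1075 bases, those of rbpj.L 11914 bases, of which 10258 are a 3′ UTR, and those of rbpj.S, tcf3.L, tcf3.S, tcf12.L and tcf12.S span 4009, 3096, 4771, 6911 and 5009 bases. On this scale, with both copies added, the Ptf1a libraries of 6 h held 172 and 169 CPM per kb of ptf1a, 73.6 and 66.6 of tcf3, 13.2 and 12.2 of tcf12 and 4.16 and 3.57 of rbpj. The injected transcript was thus 41.3 and 47.2 times the rbpj level in CPM per kb, and in mutant libraries of 6 h 41.9 and 36.4 times. By 25 h the ratio of ptf1a to rbpj was 0.726 and 0.804 with Ptf1a and 1.58 and 1.07 with the mutant. The injected mRNA may lack the annotated UTR, and a short 3′ end in use would raise the rbpj.L level per kb, so these ratios rest on the annotation.

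In every library tcf3 was the most abundant of the 3 partner genes and rbpj or tcf12 came after it. The sum of tcf3 and tcf12 over rbpj, in CPM per kb, was 19.8 and 19.8 in the controls of 6 h and 20.9 and 22.1 in the Ptf1a caps of 6 h. At 25 h this ratio was 30.2 and 24.2 in the Ptf1a caps, 15.0 and 14.9 in the controls, 16.2 and 15.0 in the mutant caps and 16.2 and 17.7 in the Neurog2 caps. Among the 8 libraries of 25 h those with Ptf1a were the highest, and among the 16 the Neurog2 library 1 of 6 h (24.3) lay level with the Ptf1a library 2 of 25 h. The ratios were not tested, and they carry the rises of the E-protein genes given above.

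**Figure D5:**
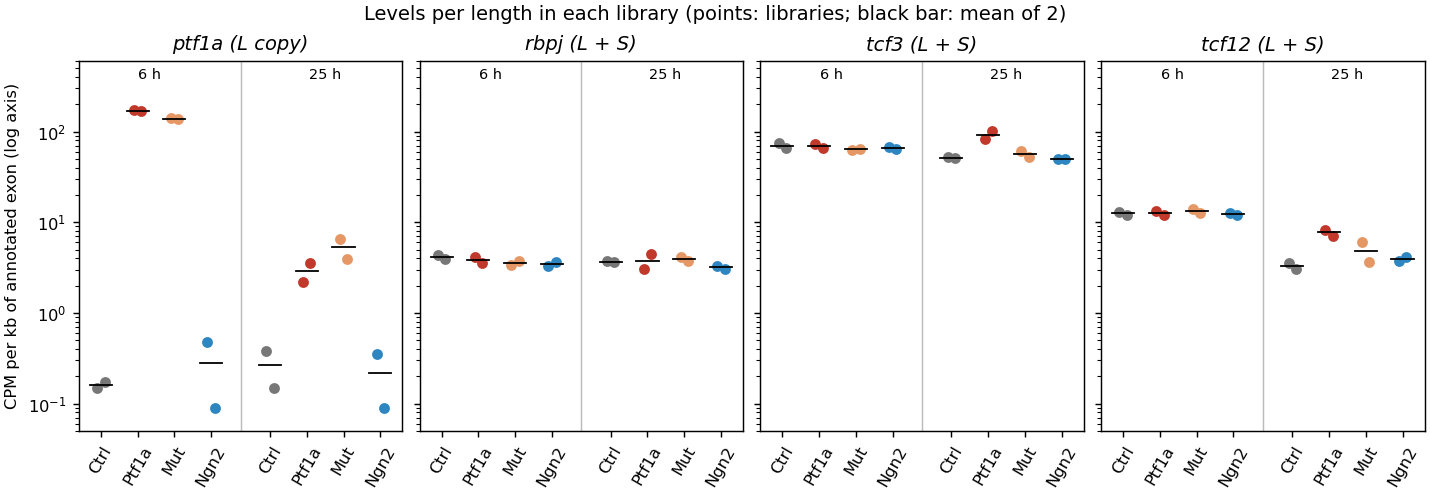
Level per length of ptf1a, rbpj, tcf3 and tcf12, with L and S copies added (y axis, CPM per kb of annotated exon, logarithmic), in every library, with points for libraries and a black bar for the mean of 2. At 6 h ptf1a (172 and 169 with Ptf1a) is above all 3 partners, and at 25 h it is near rbpj (2.20 and 3.59 against 3.03 and 4.47).

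Among the genes that oppose E proteins, the Id genes, whose products bind E proteins and keep them from DNA, were higher at 6 h. Of the 6 copies tested (id2, id3 and id4; the list also held id1 and the E-protein gene tcf4, which were not analysed here), 5 were called higher with Ptf1a at 6 h, 1 with Neurog2 and 4 with the mutant, beside 0.902%, 0.25% and 0.606% of all genes called in either direction. Their median log2 fold change was 2.66 with Ptf1a, 2.14 with the mutant and 1.48 with Neurog2, beside 0.15, 0.03 and 0.01 over all genes. The copy id2.L stood at 393 ± 6.00 CPM with Ptf1a (3.21 ± 0.31, adjusted p = 0.000323), 280 ± 103 CPM with the mutant (adjusted p = 0.00152) and 154 ± 66.5 CPM with Neurog2 (adjusted p = 0.0231), against 42.4 ± 5.01 CPM in the controls.

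With Ptf1a at 6 h id4.S was at 23.5 ± 17.6 against 0.327 ± 0.265 CPM (6.10 ± 1.10, adjusted p = 0.0204) and id4.L at 4.58 ± 1.94 against 0.147 ± 0.0425 CPM (adjusted p = 0.0111). In the mutant caps they were at 27.5 ± 32.3 CPM (adjusted p = 0.0242) and 6.06 ± 6.11 CPM (adjusted p = 0.0105). At 25 h none of the 6 was called against control in any kind of cap. Of all genes 20.5% were then called in either direction in Ptf1a caps, 3.08% in Neurog2 caps and 0.836% in mutant caps. The copy id2.L stood at 222 ± 5.34 CPM with Ptf1a and 249 ± 38.3 CPM in the controls of 25 h. For id3.L these levels were 194 ± 41.2 and 151 ± 15.8 CPM. In control caps 4 of the 6 were called higher at 25 h than at 6 h, id2.L among them. Of all genes 59.3% were called there in either direction and 30.4% lower, so the share called higher was the smaller part. In Ptf1a caps 4 of the 6 were called lower at 25 h, beside 29.8% of all genes.

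Rbpj works with Notch receptors and Maml coactivators, and with corepressors when Notch is silent. Of 39 such genes tested, 2 were called higher with Ptf1a at 6 h, both copies of the receptor gene notch1, beside 0.902% of all genes called in either direction. The copy notch1.L stood at 67.6 ± 0.458 against 11.7 ± 0.0463 CPM (2.54 ± 0.37, adjusted p = 0.00556) and notch1.S at 143 ± 6.05 against 67.1 ± 12.1 CPM (1.09 ± 0.22, adjusted p = 0.0384). The same copies were called with the mutant, at 62.2 ± 16.2 CPM (adjusted p = 0.00959) and 163 ± 24.8 CPM (adjusted p = 0.0206), and no gene of the list with Neurog2. Of all genes 0.606% were called with the mutant and 0.25% with Neurog2. In the Neurog2 caps of 6 h notch1.L stood at 43.4 ± 1.32 CPM and notch1.S at 114 ± 7.73 CPM, both group means above those of the controls, and hdac1.L, the most abundant gene of the list, at 550 ± 108 against 485 ± 91.4 CPM.

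At 25 h 10 of the 39 were called higher with Ptf1a and 0 lower, where 11.9% of all genes were called higher and 20.5% in either direction, with a median log2 fold change of 0.21 beside 0.08 over all genes. They included notch1.L (50.5 ± 13.8 against 8.46 ± 3.97 CPM, adjusted p = 0.000705), notch3.L (47.1 ± 14.1 against 13.6 ± 2.03 CPM, adjusted p = 0.00061) and notch3.S (37.5 ± 10.3 against 10.1 ± 1.58 CPM, adjusted p = 0.0356). None was called with Neurog2 or the mutant, beside 3.08% and 0.836% of all genes. In these caps hdac1.L stood at 129 ± 28.9 and 174 ± 67.4 CPM against 137 ± 36.7 CPM in the controls. Between the times in control caps 18 of the 39 were called lower and 1 higher, where 30.4% of all genes were called lower and 59.3% in either direction, and their median was -0.81 beside -0.14 over all genes. The corepressor gene tle2.S went from 160 ± 21.4 to 9.16 ± 0.444 CPM and the coactivator gene maml2.S from 4.28 ± 0.810 to 0.495 ± 0.0887 CPM, while notch2.L went up from 1.10 ± 0.495 to 33.7 ± 7.82 CPM.

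Class II bHLH genes encode the other factors that pair with E proteins. Of 47 copies tested, 2 were called higher with Ptf1a at 6 h, beside 0.902% of all genes called in either direction. They were olig2.S (10.2 ± 0.785 against 0.231 ± 0.128 CPM) and twist1.L (5.84 ± 0.0790 against 0.193 ± 0.0905 CPM). At 25 h 16 were called higher and 3 lower with Ptf1a, beside 11.9% of all genes called higher and 20.5% in either direction, with a median log2 fold change of 1.68 beside 0.08 over all genes. Among them were the proneural gene neurog1.L at 16.7 ± 6.33 CPM and the progenitor gene olig3.S at 8.82 ± 2.08 CPM, both at 0 counts in the controls, where 3 counts would be 0.0564 and 0.119 CPM. The early neuronal gene nhlh1.S stood at 27.4 ± 1.09 against 0.0398 ± 0.0563 CPM. With Neurog2 13 of the 47 were called higher at 25 h and with the mutant 2, beside 3.08% and 0.836% of all genes called in either direction, and the list holds neurog2, the gene injected in the Neurog2 caps.

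In control caps 6 of the 47 bHLH copies were called higher at 25 h than at 6 h and 11 lower, fewer in share than the 59.3% of all genes called and the 30.4% called lower. The largest of these changes were in hand2.S, a gene of heart and limb mesenchyme in vertebrates, from 0.901 ± 0.0211 to 69.1 ± 5.97 CPM, in olig3.S, from 1.18 ± 0.308 CPM to 0 counts, and in neurog2.S, from 1.18 ± 0.576 to 0.0188 ± 0.0266 CPM.

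Digestive enzyme genes and nr5a2 are targets of the Ptf1a complex in the mammalian pancreas. Of the 9 copies of such genes tested, 0 were called with Ptf1a at 6 h by edgeR, beside 0.902% of all genes. The granule membrane gene gp2.S then stood at 7.78 ± 1.17 against 6.46 ± 1.06 CPM and pnlip.L, the pancreatic lipase gene, at 0.0965 ± 0.00140 against 0.133 ± 0.0751 CPM. At 25 h nr5a2.S (7.42 ± 1.72 against 0.0586 ± 0.0297 CPM, adjusted p = 0.00434) and nr5a2.L (2.28 ± 0.178 against 0.206 ± 0.159 CPM, adjusted p = 0.0328) were called higher and pnlip.L was called lower (40.2 ± 5.48 against 78.8 ± 8.95 CPM, adjusted p = 0.0174). Of all genes 11.9% were called higher with Ptf1a and 20.5% in either direction, and with Neurog2 3.08% in either direction. With Neurog2 nr5a2.S (43.9 ± 41.8 CPM, adjusted p = 0.00654) and nr5a2.L (37.1 ± 39.3 CPM, adjusted p = 0.00689) were called higher too, and nr5a2.L was called lower with Ptf1a than with Neurog2 (-4.02 ± 0.96, adjusted p = 0.0226). In control caps pnlip.L went up between the times, from 0.133 ± 0.0751 CPM, and gp2.S went down from 6.46 ± 1.06 to 0.0188 ± 0.0266 CPM.

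Genes whose levels ran most like those of the 7 were found by the Pearson correlation of log2 CPM over the 16 libraries, among 18576 genes with an L or S symbol and a mean log2 CPM above 0. The libraries share their times and treatments, so these correlations describe patterns and carry no test. Those nearest to tcf3.L included nrxn3.L (r = 0.980), a synaptic adhesion gene, and mcm2.S (0.971), a subunit of the replicative helicase. In group means nrxn3.L stood at 10.1 CPM in the Ptf1a caps of 25 h and at 0.4 to 4.0 CPM in all other groups. The homeolog tcf3.S ranked 327 in likeness to tcf3.L (r = 0.836), and the genes nearest to tcf3.S were rbbp7.S (0.940), sema3c.L (0.922) and degs1.S (0.916).

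For tcf12.L the nearest were srsf6.S (r = 0.970), a splicing factor gene, mtf2.L (0.966), a Polycomb-associated gene, and mst1.L (0.960), and tcf12.S ranked 939 (0.845). For tcf12.S they were qsox2.S (0.990), etv1.L (0.989), an ETS factor gene, and brwd3.L (0.988), all high at 6 h and low at 25 h. Nearest to rbpj.L were sgpp2.L (0.850), ube4b.L (0.847) and wibg.L (0.847), with rbpj.S at rank 7457 (0.380), and nearest to rbpj.S were mfsd5.S (0.839), impad1.L (0.770) and txndc12.L (0.735). The transcript of ptf1a.L was followed most closely by snrk.S (0.884), ddx28.L (0.830) and frmd4a.L (0.813), and snrk.S stood at 40.0 and 57.9 CPM in the Ptf1a and mutant caps of 6 h and at 10.3 to 15.5 CPM elsewhere. Among the 7 themselves the closest pair was tcf3.L with tcf12.L (0.889), which are different genes, ahead of tcf12.L with tcf12.S (0.845) and tcf3.L with tcf3.S (0.836).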

How the data were processed

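The authors deposited raw counts per gene, 1 table for each of the 16 libraries, made with featureCounts per the submitters' processing notes, which also name CASAVA 1.8, STAR 2.5 and DESeq2 1.8. How strand and multiply mapped reads were handled is not given in the sources used here, so reads shared by L and S copies or by overlapping genes may be split between them. Coordinates and exon lengths come from the deposited annotation of build 9.1. No sequence is printed.

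The 7 genes and the gene lists were chosen with earlier results of these data known. The text names the 7 genes and neurog2.L in every comparison, the 3 genes nearest to each of the 7 in Pearson correlation (log2 CPM, prior count 2), of which 1 is not reported here, and from each list up to 3 called genes with the largest change and a mean log2 CPM above 0, or its most abundant gene over all libraries where none was called. For comparison, id2.L at 25 h, gp2.S at 6 h, notch1 in Neurog2 caps of 6 h and nr5a2 with Neurog2 were added after their values were seen. The single markers sox3.S and tubb2b.S were also named outside this rule.

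Counts were analysed in R 4.3.3 with edgeR 4.0.16 as deposited. TMM scaling and filterByExpr by group left 30384 genes. All 16 libraries entered 1 robust quasi-likelihood fit of 8 group means (8 residual degrees of freedom, biological coefficient of variation 0.378 in common). The fit was also run on simulated data with independent libraries and 1 dispersion for all genes. Those data lack the excess of even counts and the variation shared by replicate number, so that run does not check the fit for these. SEs are the log2 fold change over the square root of F. Alternatives were DESeq2 size factors, DESeq2 1.42.0, no filter, the replicate number as a block, smaller sets of libraries, summed copies and leaving out each library. Floors are 3 counts per library and cover counting error only.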

Additional observations from a re-analysis of the deposited data

Results flagged for a closer look

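A test of the difference between the times singled out 4 differences from control among the 7 genes. In ptf1a.L, whose count holds the injected mRNA, the difference of Ptf1a caps from control was smaller at 25 h than at 6 h. The log2 difference was -6.74 ± 0.92 (adjusted p = 0.00174, edgeR), and for mutant caps -5.60 ± 0.91 (adjusted p = 0.0342). This count cannot separate injected transcripts from the embryo's own. The effect of Ptf1a on tcf3.L was larger at 25 h by 1.05 ± 0.21 (adjusted p = 0.00964) and that on tcf12.L by 1.37 ± 0.36 (adjusted p = 0.0343). For tcf3.L the control libraries stood at 81.6 and 77.6 CPM at 6 h and 46.8 and 51.1 CPM at 25 h, and the Ptf1a libraries at 80.4 and 73.8 CPM and then 92.1 and 105 CPM. For tcf12.L the controls stood at 24.5 and 21.6 CPM at 6 h and 9.73 and 9.24 CPM at 25 h, and the Ptf1a libraries at 27.7 and 23.7 CPM and then 31.9 and 22.8 CPM.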

How the results depend on the processing

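No direction of a called gene reversed under any alternative. In a fit to the 8 libraries of the time, mutant against control at 25 h called 0 of the 7 genes. Over all genes that fit called 7 higher and 0 lower. Fits to the 4 libraries compared called 0 for that comparison, for Ptf1a against Neurog2 at 6 h and for Ptf1a against mutant at 25 h. Over all genes these fits called 0 for the first, 1 for the second, and 665 higher and 412 lower for the third. Between the times in Ptf1a caps, DESeq2 size factors, the replicate block and DESeq2's Wald test called 4, adding tcf3.L and tcf3.S. Of all genes they called 9240, 9572 and 9816 higher and 8465, 9989 and 8905 lower. The difference between the times of the Ptf1a effect gave 5 calls with the replicate block within each time and with DESeq2's Wald test, and that of Ptf1a against mutant gave 2 (tcf3.L and tcf12.L) with these and with the replicate block. For the first difference these settings called 3048 and 2401 of all genes higher and 4184 and 2603 lower. For the second they called 1323, 937 and 540 higher and 1933, 987 and 607 lower. With copies summed, ptf1a, tcf3 and tcf12 were called for Ptf1a against control at 25 h. Between the times the sums called tcf12 alone in Neurog2 caps, and ptf1a and tcf12 in mutant caps. The share of all summed genes called is not given. The cause of these changes in the calls was not tested.

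Leaving out each library in turn gave 3 to 4 calls for Ptf1a against control at 25 h, 0 to 2 for mutant against control, 0 to 2 for Ptf1a against mutant and 2 to 4 for Ptf1a against Neurog2 at 25 h. It gave 2 to 4 between the times in Ptf1a caps, 0 to 3 for the difference between the times of the Ptf1a effect and 0 to 1 for that of the mutant effect. An arm left with 1 library is assumed to vary like the others, and the number called over all genes also changed in such fits. For Ptf1a against control at 25 h it was lower in each such fit than in the main fit. For mutant against control at 25 h it went both ways. A call lost in such a fit thus cannot be told from a general loss of calls.

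Deviations of libraries with the same replicate number from their group means correlated at 0.125 to 0.697 over 28 pairs of groups. Pairs of the same time correlated at 0.617 to 0.697 at 6 h and at 0.201 to 0.370 at 25 h. Pairs across the times correlated at 0.125 to 0.239. Libraries of the same number thus shared variation within a time, most at 6 h. Neither the main fit nor the exact test of the L shares models this. With 2 numbers a group and no label tying a number to a batch, the block is an alternative only. The replicate block ended no call among the 7 genes. With 2 libraries a group, a gene without a call may still have changed by any amount within its interval.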
